A study of Mus musculus with 18 samples.

Results

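Pyroptosis and necroptosis are inflammatory forms of cell death in which the plasma membrane is broken, and 9 genes of their core machinery were followed: Aim2, Pycard, Casp1, Casp4, Gsdmd, Casp8, Ripk1, Ripk3 and Mlkl. They were chosen by name, with earlier results of these data known, and all 9 were found among the 25918 gene names of the deposited count table. Counts and medians over the 9 therefore describe them and do not test them as a set. Messenger RNA of BALB/c mice had been sequenced in 18 libraries, 3 in each of 6 groups, from the cortex of the brain and from a bone of the skull, the interparietal: brain controls, brain at days 2 and 6 after ischemic injury, skull controls, and skull at days 2 and 4 after the injury. The labels name no transgene, drug or surgery for any group, and do not give the age of the mice, how ischemia was induced or whether the controls had a sham operation. The tissue held both the ischemic area and its surroundings. No label says that the libraries of a group came from separate mice, so p-values rest on the spread of libraries within a group, which may be technical.

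Total counts per library lay between 13005050 and 27654269. The markers of the labelled tissues were present: neuron markers summed to between 5402 and 10361 CPM (counts scaled to a common library size) in brain libraries, and osteoblast and osteocyte markers to between 21361 and 73369 CPM in skull libraries. Neuron markers were also found in skull, with sums of 61.2 to 201 CPM at day 2 and 130 to 162 CPM at day 4, against 681 to 717 CPM in skull controls. Within a group, pairs of libraries correlated between 0.928 and 0.986 in log2 CPM, over the genes that passed the filter on low counts in each tissue.

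In pyroptosis a sensor such as the DNA receptor Aim2 binds the adaptor ASC, the product of Pycard, which recruits and activates caspase-1. Caspase-1 matures interleukin-1 beta and interleukin-18 and cuts gasdermin D, whose freed end forms pores in the plasma membrane; Casp4, which encodes mouse caspase-11, responds to bacterial lipopolysaccharide in the cytosol and cuts gasdermin D as well. In necroptosis, death receptor signals pass through the kinases Ripk1 and Ripk3 to the pseudokinase Mlkl, which breaks the membrane once phosphorylated, and caspase-8 cuts both kinases and so restrains this route. Inflammasome proteins are known from microglia, macrophages and endothelial cells of the ischemic brain, and the marrow of skull bone is rich in myeloid cells. The measurement is of mRNA, and says nothing of cleavage or phosphorylation, by which these proteins are activated.

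The genes lie on 7 chromosomes of mm10 (GENCODE M21). Casp1 (ENSMUSG00000025888.5, chromosome 9, 5298517 to 5307265, plus strand) and Casp4 (ENSMUSG00000033538.13, chromosome 9, 5308828 to 5336783, plus strand) are direct neighbours. Casp8 (ENSMUSG00000026029.14, 58795374 to 58847503) and Aim2 (ENSMUSG00000037860.15, 173350879 to 173466040) are both on the plus strand of chromosome 1. Gsdmd (ENSMUSG00000022575.5) spans 75862327 to 75867408 on chromosome 15, plus strand. Ripk1 (ENSMUSG00000021408.15) spans 34002363 to 34037147 on chromosome 13, plus strand. Ripk3 (ENSMUSG00000022221.14) spans 55784995 to 55788865 on chromosome 14, minus strand. Mlkl (ENSMUSG00000012519.14) spans 111311797 to 111338177 on chromosome 8, minus strand. Pycard (ENSMUSG00000030793.4) spans 127989708 to 127993867 on chromosome 7, minus strand. The strand setting of the counting is not given in the sources used here, which touches genes whose exons overlap others: Pycard shares 12.76% of its exon bases with Gm45205 on the opposite strand, and Ripk1 shares 2.89% with Serpinb6a on the opposite strand and 6.12% with the pseudogene Gm17084 on its own strand.

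Most of these genes moved in the same direction in brain, and several are known targets of interferon signalling, so their promoters were searched for 3 short motifs in windows from 250 bases before to 50 bases after the start site (RefSeq, GRCm38.p6). The table held 10 windows for 8 of the 9 genes; Gsdmd is named only. The motifs, sought on both strands, were the interferon-stimulated response element core (GAAA, any 2 bases, GAAA), the gamma-activated sequence TTCNNNGAA, which reads the same on both strands, and the ETS/PU.1 core GAGGAA. Of all 32851 promoter windows in the table, 3.44% held the first, 8.3% the second and 28.3% the third. The promoters that held a match are shown, 5' to 3' on the strand of the gene, with each match in capitals (TTCCTC is the ETS core read on the other strand).
Ripk1 (chr13:34002624-34002923, plus strand): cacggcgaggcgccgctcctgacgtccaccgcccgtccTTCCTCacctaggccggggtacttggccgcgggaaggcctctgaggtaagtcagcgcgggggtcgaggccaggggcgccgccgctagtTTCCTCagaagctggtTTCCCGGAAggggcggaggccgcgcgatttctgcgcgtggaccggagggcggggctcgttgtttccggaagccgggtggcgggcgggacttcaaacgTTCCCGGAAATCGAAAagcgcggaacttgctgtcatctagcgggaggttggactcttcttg
Aim2 (chr1:173420354-173420653, plus strand): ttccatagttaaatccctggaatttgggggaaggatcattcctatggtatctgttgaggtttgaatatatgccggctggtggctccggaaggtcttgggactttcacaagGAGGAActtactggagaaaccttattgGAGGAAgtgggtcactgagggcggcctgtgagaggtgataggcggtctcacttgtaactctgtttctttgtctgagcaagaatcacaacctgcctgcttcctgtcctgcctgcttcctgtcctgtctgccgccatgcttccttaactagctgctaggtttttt
Casp1 (chr9:5298267-5298566, plus strand): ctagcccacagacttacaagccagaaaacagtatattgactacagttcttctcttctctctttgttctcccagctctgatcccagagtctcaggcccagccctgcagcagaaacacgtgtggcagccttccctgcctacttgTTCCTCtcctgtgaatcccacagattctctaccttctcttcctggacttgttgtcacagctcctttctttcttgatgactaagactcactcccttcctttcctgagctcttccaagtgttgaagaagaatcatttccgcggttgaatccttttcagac
Pycard (chr7:127993818-127994117, minus strand): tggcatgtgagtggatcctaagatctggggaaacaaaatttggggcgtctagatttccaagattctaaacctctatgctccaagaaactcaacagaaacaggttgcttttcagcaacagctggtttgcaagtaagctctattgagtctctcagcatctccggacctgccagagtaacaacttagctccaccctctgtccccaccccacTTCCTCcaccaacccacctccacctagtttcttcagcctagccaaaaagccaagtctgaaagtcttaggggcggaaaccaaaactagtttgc
The Ripk1 window was the only one of the 10 with the interferon-stimulated core, 5 bases before the start site. It also held 2 gamma-activated sequences, at 108 and 11 bases before the start; the nearer one overlaps the interferon-stimulated core and is shown joined to it. Beyond these, the ETS core was found at 212 and 124 bases before the start in Ripk1, at 140 and 113 bases in Aim2, at 108 bases in Casp1 and at 42 bases in Pycard. The windows of Casp4, Casp8, Mlkl and Ripk3, and another window of Ripk1 that starts further upstream, held no match. A match is a description of the letters and not a bound site.

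Per length of exon, the order of the genes differed between the tissues. In brain controls Casp1 came first, with 3.37 ± 0.748 CPM per kb (mean ± SD, n = 3 here and below), above Casp8 with 1.07 ± 0.104 and Gsdmd with 1.02 ± 0.1252 CPM per kb, whose libraries overlapped. Ripk1 and Aim2 followed without overlap at 0.768 ± 0.0513 and 0.639 ± 0.0201 CPM per kb. Ripk3, Casp4, Pycard and Mlkl had means of 0.0955 to 0.164 CPM per kb, and neighbours among these 4 overlapped.

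In skull controls the pore former Gsdmd came first at 20.1 ± 1.95 CPM per kb, above Casp8 at 11.7 ± 0.608 and Casp1 at 6.75 ± 0.731 CPM per kb. Ripk3, Ripk1, Aim2, Mlkl and Casp4 lay between 5.46 and 2.48 CPM per kb, where only Ripk1 and Aim2 were separated among neighbours in the order. Pycard was last at 0.547 ± 0.250 CPM per kb, and had the lowest mean in every group but brain controls. In brain at days 2 and 6 its libraries overlapped those of the gene above it. At day 2 in skull, Ripk3 stood at 14.8 ± 0.667 CPM per kb, above every library of Casp1 in that group; in skull controls its range of 4.46 to 6.54 CPM per kb reached into that of Casp1, 6.20 to 7.58.

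**Figure D1:**
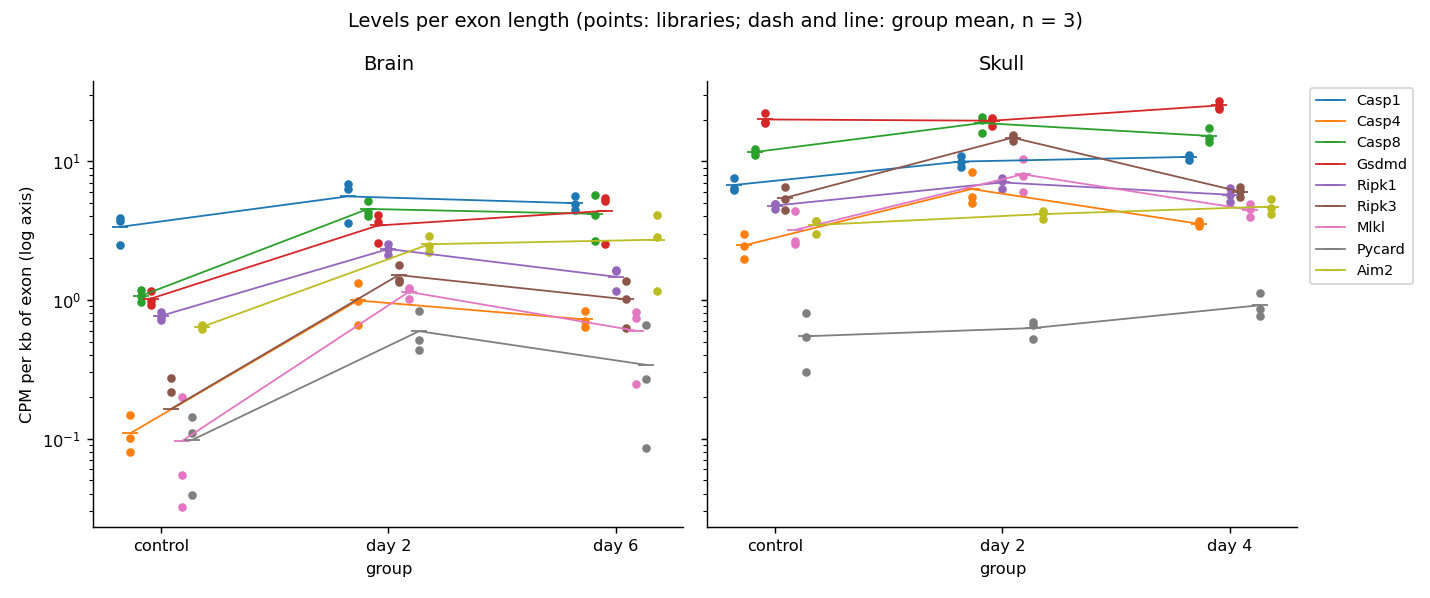
Level of each gene in CPM per kb of exon (log axis) in brain (left) and skull (right), with points for libraries and a dash joined by a line for the mean of each group of 3. In brain Casp1 has the highest mean in all 3 groups, with libraries that overlap those of Casp8 and Gsdmd at days 2 and 6. Ripk3, Casp4, Mlkl and Pycard are at the bottom in brain controls, where 1 Ripk3 library had no count and is not drawn. In skull Gsdmd has the highest mean and Pycard the lowest throughout, with overlap of Gsdmd and Casp8 at day 2. The level of Ripk3 in skull is highest at day 2.

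All 9 genes were lower in brain controls than in skull controls. Casp4, Pycard, Ripk3 and Mlkl, with 16 to 30 counts over the brain controls, passed the filter on low counts only through the skull libraries. For them the filter favoured this direction, and the counts and median below include them. Across all genes, 36.4% were lower in brain and 34.5% higher at an adjusted p below 0.05 (edgeR's quasi-likelihood test with Benjamini-Hochberg adjustment, the test used throughout), the libraries did not overlap for any of the 9, as for 39.3% of all genes in that direction, and the median log2 difference was -3.48 for the 9 genes and -0.0347 for all genes tested. The gaps were -5.10 ± 0.72 for Ripk3 and -5.08 ± 0.57 for Mlkl (log2 difference, brain minus skull, ± SE). They moved with brain control replicate 2, without which they were -4.47 and -4.63, and with replicate 1, without which they were -5.68 and -6.15; limma voom gave -6.18 for Ripk3. Gsdmd differed by -4.33 ± 0.15 with an adjusted p of 1.9e-06, and Casp1 showed the smallest gap of the 9, -1.04 ± 0.21 with an adjusted p of 0.0038. Myeloid markers differed in the same direction: monocyte markers summed to 74.8 to 115 CPM in brain controls against 1140 to 1198 CPM in skull controls, and neutrophil markers to 6.92 to 10.3 against 900 to 1600 CPM, each tissue on its own scale. The part of these cells in the gaps was not tested, and in bulk tissue fewer cells of a type and less RNA per cell cannot be told apart.

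At day 2 after injury, 8 of the 9 genes were higher in injured cortex than in control cortex, all but Casp1. All genes tested gave 14.7% higher and 9.99% lower at the same threshold, and the median log2 change was 2.08 for the 9 genes against 0.000354 for all genes. The libraries of day 2 lay above all control libraries for the same 8 genes, as they did for 21.8% of all genes. Casp4, Pycard, Ripk3 and Mlkl, with 16 to 30 counts over the controls, passed the filter on low counts only through the injured libraries. With no filter all 9 genes were called.

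The sensor Aim2 had 7.81, 8.51 and 10.2 CPM at day 2, against 2.26, 2.16 and 2.29 CPM in brain controls. The controls lay within a narrow band, and every injured library was well above it; the log2 change was 1.98 ± 0.37 (adjusted p = 0.00179). The adaptor gene Pycard had 1.66, 3.18 and 1.94 CPM at day 2, against 0.545, 0.149 and 0.416 CPM in brain controls. It rose 6.10-fold (log2 2.61 ± 0.65, adjusted p = 0.00933), on 27 counts over the 3 control libraries.

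Of the inflammatory caspases, Casp4 rose and Casp1 did not pass the test. Casp4 had 2.44, 4.92 and 3.67 CPM at day 2, against 0.545, 0.298 and 0.375 CPM in brain controls, a 9.0-fold change (log2 3.17 ± 0.38, adjusted p = 6.52e-05). Casp1 had 10.3, 5.38 and 9.38 CPM at day 2, against 5.82, 3.76 and 5.54 CPM in brain controls. Replicate 2 of day 2 lay within the range of the controls, and the log2 change was 0.73 ± 0.26 with an adjusted p of 0.0541. Casp1 passed with DESeq2 (adjusted p = 0.0365), with no filter on low counts (0.0424), without control replicate 1 (0.0483) and without day 2 replicate 2 (0.0102), while over all libraries left out in turn its adjusted p ran from 0.0102 to 0.207. The pore-forming Gsdmd had 6.15, 9.74 and 8.68 CPM at day 2, against 2.76, 2.19 and 2.33 CPM in brain controls (log2 1.75 ± 0.29, adjusted p = 0.000652).

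Casp8, which restrains necroptosis and can drive apoptosis, had 12.5, 15.1 and 11.8 CPM at day 2, against 3.39, 3.09 and 2.79 CPM in brain controls. It rose 4.24-fold (log2 2.08 ± 0.25, adjusted p = 6.77e-05). Ripk1, the kinase at the entry to necroptosis, had 17.5, 19.6 and 21.2 CPM at day 2, against 6.87, 6.02 and 6.33 CPM in brain controls. It showed the smallest change among the 8 genes that rose, 3.03-fold (log2 1.60 ± 0.17, adjusted p = 2.69e-05).

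The downstream kinase Ripk3 had 3.21, 4.10 and 3.07 CPM at day 2, against 0.628, 0 and 0.50 CPM in brain controls; control replicate 2 had no count, which allows up to 0.111 CPM at 3 counts. The membrane effector Mlkl had 2.33, 2.77 and 2.80 CPM at day 2, against 0.461, 0.0744 and 0.12 CPM in brain controls. Control replicate 1 was the highest of its group for both. The fold of Mlkl, 11.9 (log2 3.57 ± 0.61, adjusted p = 0.000785), was the highest of the 9 genes in this fit; that of Ripk3 was 9.27 (log2 3.21 ± 0.66, adjusted p = 0.00374). With limma voom the order was reversed, at log2 4.32 for Ripk3 and 3.86 for Mlkl. Both rest on few control counts, 27 for Ripk3 and 16 for Mlkl over 3 libraries, and with each library left out in turn the log2 change of Ripk3 ran from 2.60 to 3.82 and that of Mlkl from 3.14 to 4.66.

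**Figure D2:**
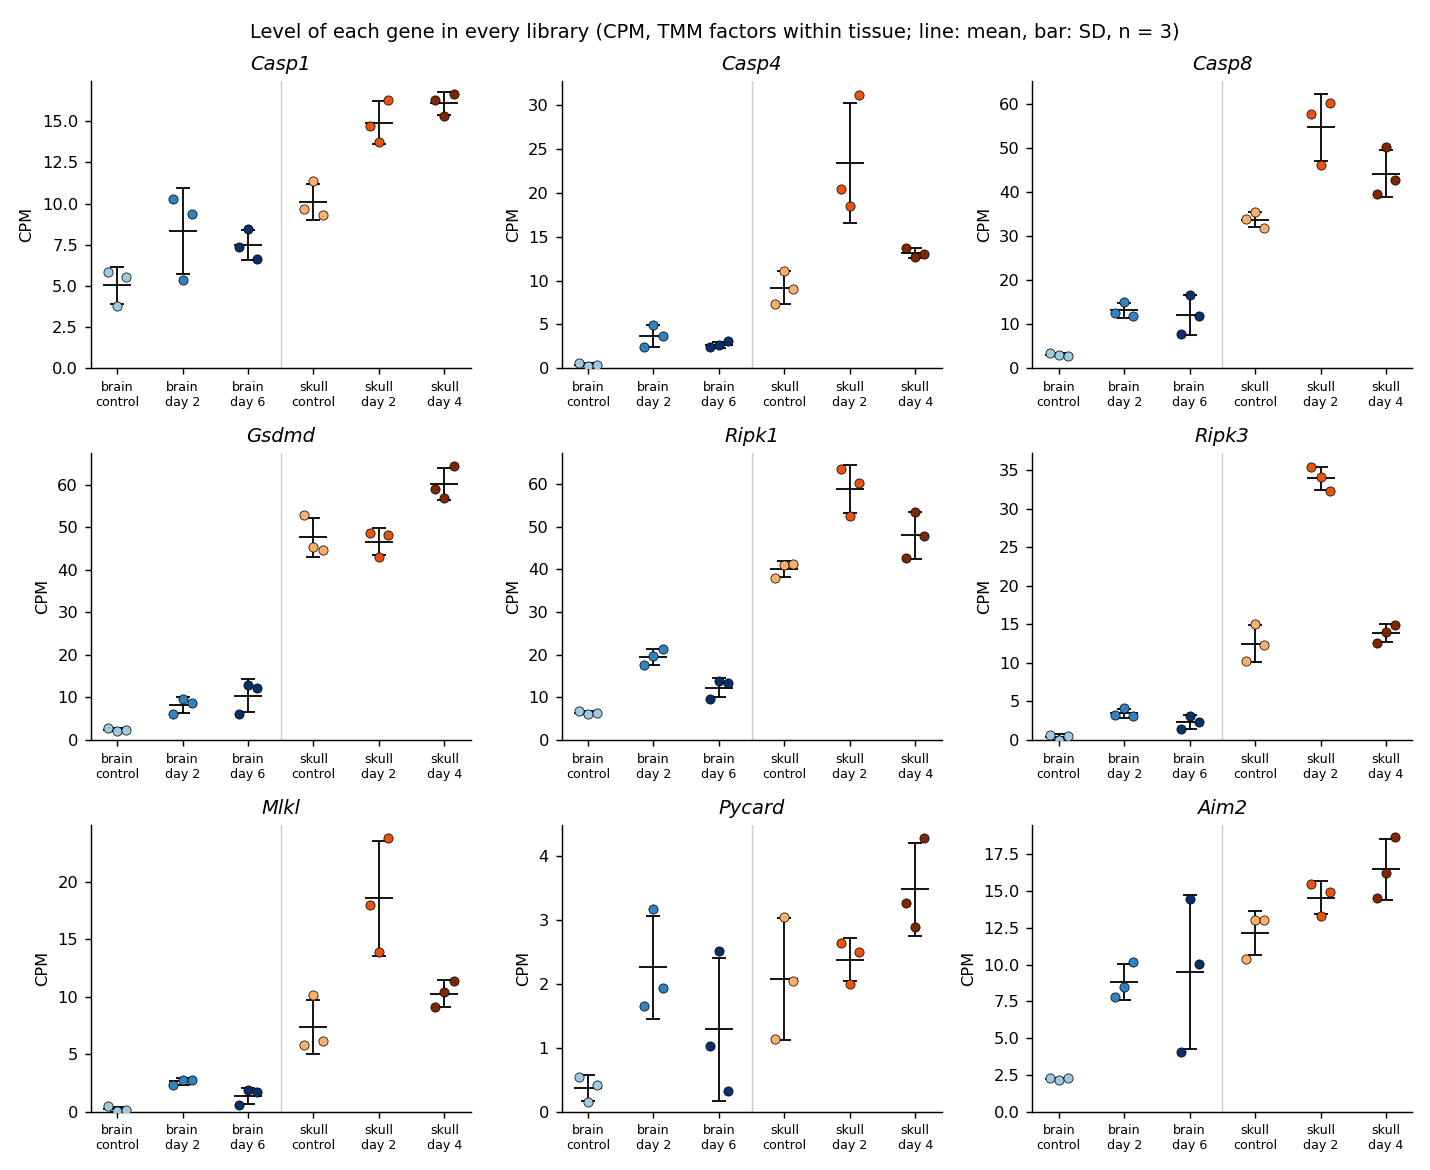
Level of each gene in CPM (linear axes that start at 0) in each library, by group from brain controls at the left to skull at day 4 at the right; the line is the mean and the bar the SD of 3 libraries. The scale was set within each tissue. All 3 brain libraries at day 2 lie above all 3 brain controls for every gene but Casp1, and Ripk3 in skull is at 32.4 to 35.4 CPM at day 2, against 10.2 to 15.0 CPM in skull controls.

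Markers of several cell types moved with these genes in brain at day 2. Of 10 microglia and macrophage markers 8 rose and P2ry12 fell, and their sum was 553 to 658 CPM at day 2 against 252 to 299 CPM in brain controls. Of 6 monocyte markers tested 4 rose, with sums of 295 to 525 CPM at day 2 against 74.8 to 115 CPM in brain controls, where S100a4 was at 0. The 8 neutrophil markers summed to 76.6 to 98.9 CPM at day 2 against 6.92 to 10.3 CPM in brain controls, with no count of Mpo in the controls. Of the 8, 4 passed the filter on low counts, at least Cxcr2 through the injured group alone (497 counts at day 2, 1 in the controls); Ly6g had 3 counts over the group at day 2 and 6 over the controls. Of 9 neuron markers 8 fell, with sums of 5402 to 6932 CPM at day 2 against 8467 to 10361 CPM in brain controls. All 6 endothelial markers rose, with sums of 176 to 293 against 106 to 110 CPM. Their part in the rise of the 9 genes was not tested.

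**Figure D3:**
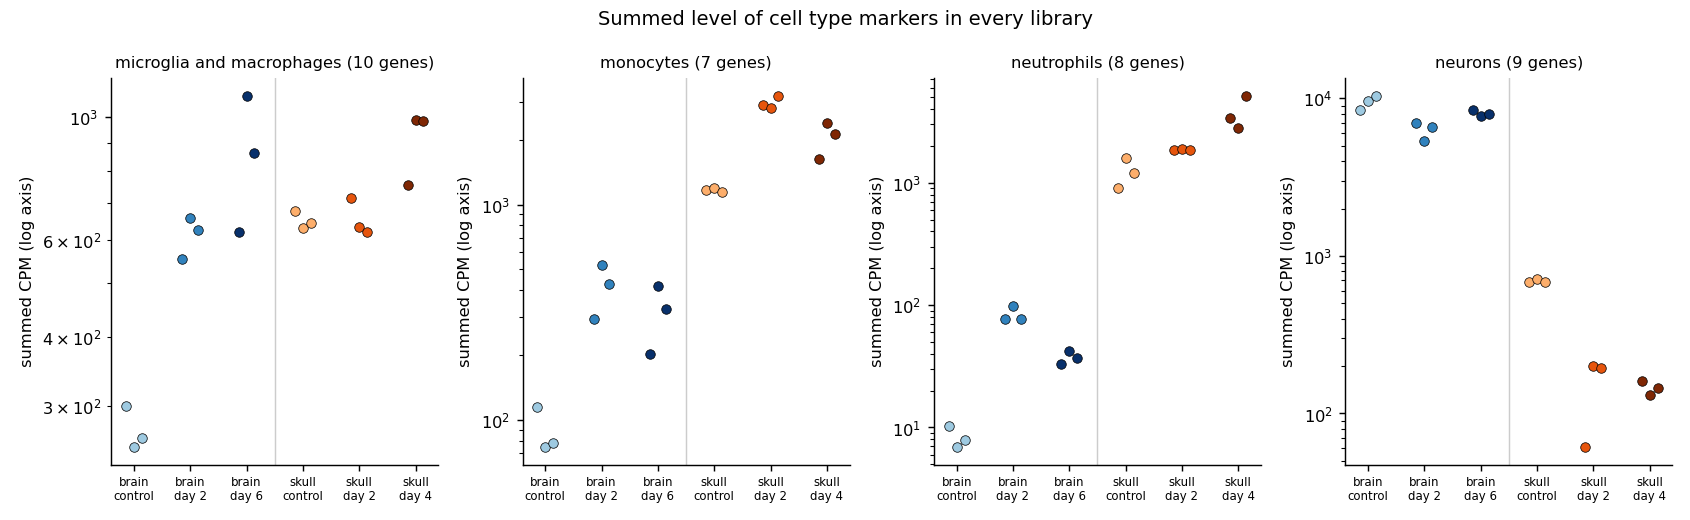
Summed CPM (log axes) of the markers of microglia and macrophages, monocytes, neutrophils and neurons in each library, by group. Microglia and macrophage sums lie at 553 to 1093 CPM in injured brain, above the 252 to 299 CPM of brain controls; neuron sums in skull lie at 61.2 to 201 CPM after injury, below the 681 to 717 CPM of skull controls.

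At day 6, 7 of the 9 genes were still higher than in control cortex, where 7.93% of all genes tested were higher and 2.39% lower. The median log2 change of the 9 genes was 2.09, against -0.0183 for all genes, and 8 of the 9 had every day 6 library above every control, as did 16.1% of all genes. Casp8 had 7.72, 16.7 and 11.9 CPM at day 6 (log2 against controls 1.97 ± 0.26, adjusted p = 0.000319). Gsdmd had 6.02, 13 and 12.3 CPM (log2 2.1 ± 0.29, adjusted p = 0.000535). Aim2 had 4.07, 14.5 and 10.02 CPM (log2 2.09 ± 0.37, adjusted p = 0.00302), so that its highest library at day 6 had more than its highest at day 2 and its lowest had less. Ripk1 had 9.63, 13.7 and 13.4 CPM (log2 0.93 ± 0.17, adjusted p = 0.00329). Casp4 had 2.37, 2.61 and 3.07 CPM, with a log2 change of 2.71 ± 0.39 (adjusted p = 0.000606).

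Of the necroptosis genes, Ripk3 had 1.44, 3.16 and 2.34 CPM at day 6 (log2 2.64 ± 0.67, adjusted p = 0.0249) and Mlkl had 0.566, 1.88 and 1.70 CPM (log2 2.63 ± 0.62, adjusted p = 0.0148). Both calls depended on single libraries, and that of Ripk3 also on the fit, with an adjusted p of 0.0536 from the compared groups alone. Ripk3 no longer passed without control replicate 3 (adjusted p = 0.0634) or without day 6 replicate 2 (0.114) or 3 (0.0779), and Mlkl no longer passed without control replicate 2 (0.0645) or 3 (0.0625) or without day 6 replicate 2 (0.0818) or 3 (0.0550). Casp1 had 7.36, 8.43 and 6.62 CPM and a log2 change of 0.57 ± 0.26 (adjusted p = 0.192). Pycard had 1.03, 2.52 and 0.323 CPM, the lowest inside the control range, and a log2 change of 1.86 ± 0.66 (adjusted p = 0.0943), which became 0.0388 without day 6 replicate 3 and 0.0486 with DESeq2. Without day 6 replicate 2 the log2 change was 0.94 (adjusted p = 0.506), and with limma voom the adjusted p was 0.191.

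Between day 6 and day 2, Ripk1 was the gene of the 9 that changed. It had 9.63, 13.7 and 13.4 CPM at day 6, against 17.5, 19.6 and 21.2 CPM at day 2, so that the groups did not overlap, as for 16.6% of all genes in that direction, and the log2 change was -0.67 ± 0.17 (adjusted p = 0.0218); of all genes, 6.26% were lower at day 6 and 5.3% higher. The call was lost without day 2 replicate 3 (adjusted p = 0.0864), day 6 replicate 1 (0.0803) or day 6 replicate 3 (0.0565). Mlkl was also lower in every day 6 library, at -0.94 ± 0.52, but with an adjusted p of 0.277. The log2 changes of the other 7 genes lay between -0.75 for Pycard and 0.35 for Gsdmd. The days share no libraries, but both are set against the same 3 controls.

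The 3 libraries at day 6 differed in level. Replicate 1 was the lowest for 7 of the 9 genes, and replicate 2 was the highest for 8. The summed microglia and macrophage markers were 620, 1093 and 860 CPM in replicates 1, 2 and 3, and the monocyte markers 202, 419 and 329 CPM, in the same order. Neutrophil (32.8, 42.0 and 36.8 CPM), endothelial (160, 186 and 175 CPM) and astrocyte sums (6737, 7318 and 7026 CPM) ranked the replicates the same way. So did the osteoblast and osteocyte, osteoclast, B cell, and T and NK cell sums. Neuron sums ran the other way (8503, 7737 and 7945 CPM), and oligodendrocyte and erythroid sums followed neither order. In the brain controls replicate 1 was the highest for 8 of the 9 genes, and its microglia and macrophage sum of 299 CPM was above the 252 and 262 CPM of replicates 2 and 3. Monocyte, neutrophil and astrocyte sums were also highest in control replicate 1, and the neuron sum was lowest there. The part of these cells in the spread was not tested. All 10 microglia and macrophage markers were higher at day 6 than in controls.

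In skull at day 2, 6 of the 9 genes were higher than in control skull, with the highest folds for the necroptosis genes Ripk3 and Mlkl and for Casp4. Of all genes tested in skull, 17.8% were higher and 16.6% lower, and the median log2 change of the 9 genes was 0.56 against -0.0101 for all genes; 7 of the 9 had no overlap of the groups, as had 24.9% of all genes in that direction. Ripk3 had 35.4, 34.1 and 32.4 CPM at day 2, against 10.2, 15.0 and 12.3 CPM in skull controls. This was a 2.71-fold rise with little spread at day 2 (log2 1.44 ± 0.15, adjusted p = 0.00019). Mlkl had 18, 13.9 and 23.8 CPM at day 2, against 5.85, 10.1 and 6.15 CPM in skull controls, a 2.52-fold rise (log2 1.33 ± 0.25, adjusted p = 0.00366).

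Casp4 had 20.5, 18.5 and 31.2 CPM at day 2, against 7.33, 11.1 and 9.08 CPM in skull controls (log2 1.35 ± 0.22, adjusted p = 0.00156). Day 2 replicate 3 was the highest for both Casp4 and Mlkl, and it also stood out for Zbp1, a sensor of Z-form nucleic acid that binds Ripk3, with 74.1 CPM against 19.1 and 15.9 CPM in replicates 1 and 2. Its erythroid markers summed to 1587 CPM, against 10300 and 6215 CPM, and the part of that in its levels was not tested. With each library left out in turn, the log2 change of Casp4 ran from 1.08 to 1.52 and that of Mlkl from 1.10 to 1.64, and both kept passing.

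The other 3 genes that rose did so by smaller factors. Casp8 had 57.7, 46.1 and 60.2 CPM at day 2, against 33.9, 35.4 and 31.9 CPM in skull controls (log2 0.70 ± 0.12, adjusted p = 0.00236). Ripk1 had 63.5, 52.5 and 60.1 CPM at day 2, against 37.9, 40.9 and 41.2 CPM in skull controls (log2 0.55 ± 0.10, adjusted p = 0.00341). Casp1 had 14.7, 13.7 and 16.3 CPM at day 2, against 9.68, 11.3 and 9.29 CPM in skull controls (log2 0.56 ± 0.13, adjusted p = 0.00922).

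The pore former of pyroptosis did not pass the test in skull at day 2: Gsdmd had 48.8, 43.0 and 48.3 CPM, against 53.0, 45.4 and 44.6 CPM in skull controls, with a log2 change of -0.03 ± 0.09 (adjusted p = 0.832). The groups overlapped. Aim2 had 15.5, 13.3 and 14.9 CPM at day 2, against 10.4, 13.04 and 13.04 CPM in skull controls (log2 0.26 ± 0.15, adjusted p = 0.193). Pycard had 2.64, 2.0 and 2.5 CPM at day 2, against 1.14, 3.04 and 2.05 CPM in skull controls (log2 0.20 ± 0.35, adjusted p = 0.696).

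Monocyte markers moved with the genes that rose in skull at day 2: 6 of 7 rose, with sums of 2814 to 3192 CPM at day 2 against 1140 to 1198 CPM in skull controls. Neutrophil markers summed to 1857 to 1897 CPM at day 2 against 900 to 1600 CPM, with 1 of 8 called higher. Of 10 microglia and macrophage markers 3 fell and 1 rose, with a median log2 change of -0.34. Their sums overlapped, 619 to 713 CPM at day 2 against 631 to 675 CPM in skull controls, with Tmem119 at 177 to 282 CPM against 195 to 221 CPM; Cx3cr1 fell, with 10.8 to 13.6 CPM against 28.8 to 30.05 CPM. All 9 neuron markers fell, with sums of 61.2 to 201 CPM at day 2 against 681 to 717 CPM in skull controls, and 5 of 6 B cell markers fell, with sums of 54.8 to 64.2 against 126 to 162 CPM. Of 6 osteoclast markers 3 rose, with sums of 2001 to 2891 CPM at day 2 against 1465 to 1506 CPM in skull controls. Of 5 erythroid markers 2 fell, with sums of 1587 to 10300 against 14488 to 19368 CPM. Of 6 T and NK cell markers 3 fell, with sums of 10.9 to 12.3 against 18.4 to 29.5 CPM. None of the markers of these lists was at 0 in either group. Their part in the changes of the 9 genes was not tested.

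At day 4 in skull, 2 of the 9 genes were called higher than controls, Casp1 and Gsdmd, where 5.83% of all genes were higher and 4.79% lower. The median log2 change was 0.44 for the 9 genes and 0.0156 for all genes, and 6 of the 9 had every day 4 library above every control, as did 17.1% of all genes. Casp1 had 16.3, 15.3 and 16.7 CPM at day 4, against 9.68, 11.3 and 9.29 CPM in skull controls (log2 0.67 ± 0.13, adjusted p = 0.0175). Gsdmd had 59.1, 57.0 and 64.5 CPM at day 4, against 53.0, 45.4 and 44.6 CPM in skull controls. The groups did not overlap for either gene, but the change of Gsdmd was small, 1.26-fold (log2 0.34 ± 0.09), and its adjusted p of 0.0495 was just below the threshold.

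The Gsdmd call at day 4 was lost with 6 of the 9 other settings tried (adjusted p 0.0560 to 0.0918), and also without skull control replicate 2 or 3, without any of the day 2 libraries and without any of the day 4 libraries, with adjusted p of 0.0555 to 0.181. Casp1 no longer passed without control replicate 3 (adjusted p = 0.0838) or without day 4 replicate 3 (0.0734); the count of all genes called was then 10 and 237, against 1853 with all libraries. Neutrophil markers moved with these genes, 6 of 8 rising, with sums of 2798 to 5123 CPM at day 4 against 900 to 1600 CPM in skull controls. Monocyte markers summed to 1635 to 2385 CPM at day 4 against 1140 to 1198 CPM, with 5 of 7 higher, and microglia and macrophage markers to 754 to 989 against 631 to 675 CPM, with 3 of 10 higher. Of 7 osteoblast and osteocyte markers 5 rose, with sums of 48895 to 73369 CPM at day 4 against 21361 to 39820 CPM in skull controls, and 8 of 9 neuron markers fell, with sums of 130 to 162 against 681 to 717 CPM. Their part in the result was not tested.

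Ripk3 overlapped with the skull controls at day 4, with 12.6, 14 and 15 CPM (log2 against controls 0.15 ± 0.15, adjusted p = 0.553). Against day 2, where it had 35.4, 34.1 and 32.4 CPM, it was 0.408-fold (log2 -1.29 ± 0.14, adjusted p = 0.000524), and this call held without each library in turn. Casp4 had 13.7, 12.7 and 13 CPM at day 4 (log2 against day 2 -0.83 ± 0.21, adjusted p = 0.0219). Mlkl had 9.11, 10.4 and 11.4 CPM at day 4 (log2 against day 2 -0.85 ± 0.25, adjusted p = 0.0379). All 3 were lower at day 4 in every library than at day 2, as were 21.2% of all genes. Gsdmd (log2 0.37 ± 0.09, adjusted p = 0.0223) and Pycard (0.55 ± 0.35, adjusted p = 0.300) were higher in every library, as were 21.4% of all genes. By the test, 11.1% of all genes were lower and 10.6% higher.

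The calls of Casp4, Mlkl and Gsdmd between these days each ended without some of the libraries. Casp4 was lost without day 2 replicate 3 (adjusted p = 0.0787) and without day 4 replicate 1 (0.0609), 2 (0.0641) or 3 (0.0706). Mlkl was lost without control replicate 3 (0.0543), day 2 replicate 1 (0.0810) or 3 (0.145), or any day 4 library (0.0787 to 0.1252). Gsdmd was lost without day 2 replicate 2 (0.0782) and without day 4 replicate 1 (0.0550) or 3 (0.0867), while Casp8 came to pass without day 2 replicate 2 (0.0390) and Ripk1 without day 4 replicate 2 (0.0449), both lower at day 4.

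**Figure D4:**
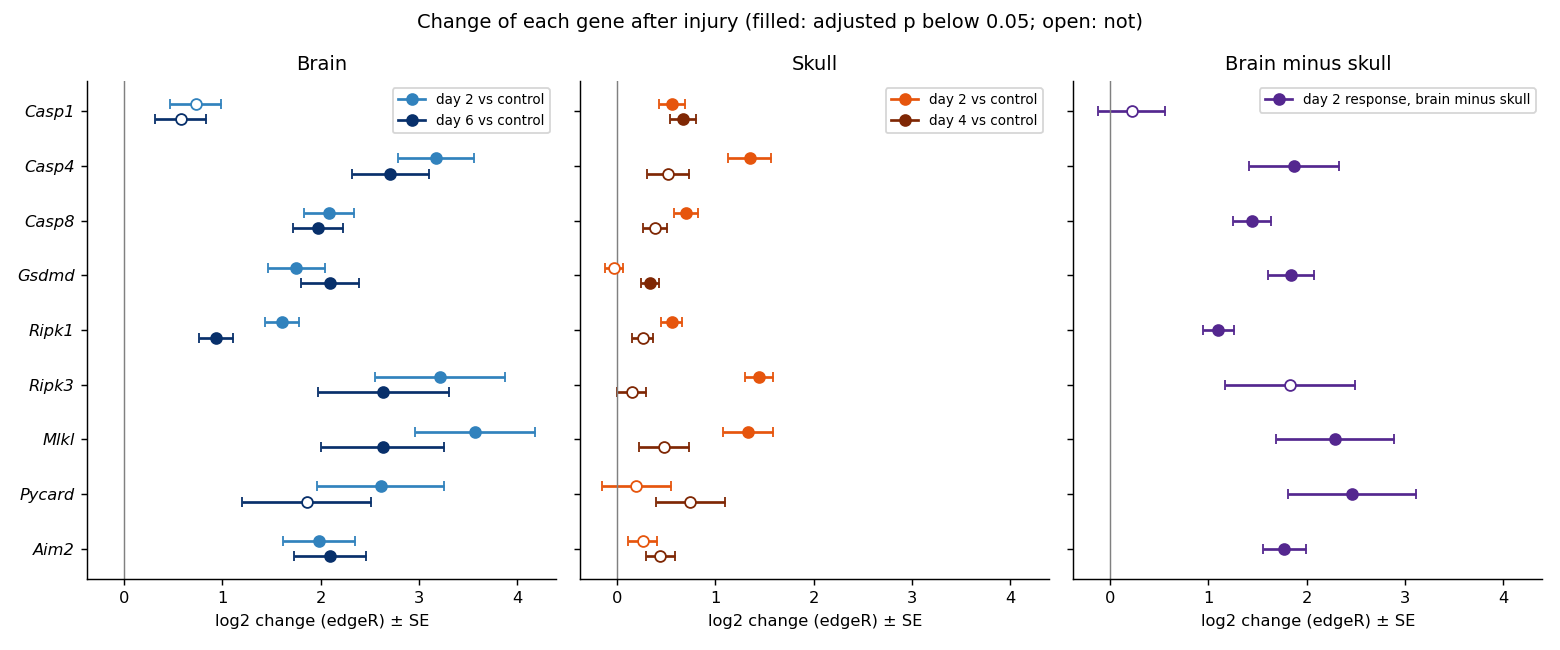
Log2 change of each gene ± SE (edgeR) in brain at days 2 and 6 (left), in skull at days 2 and 4 (middle), each against the controls of its tissue, and the day 2 response of brain minus that of skull (right); filled points passed an adjusted p of 0.05. In brain 8 of 9 points are filled at day 2 and 7 at day 6; in skull 6 are filled at day 2 and 2 at day 4. In the right panel Casp1 and Ripk3 are the open points.

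Day 2 was the time measured in both tissues, and there the response was larger in brain than in skull for 7 of the 9 genes, by the test of the difference itself. Of all genes, 14% had a higher and 3.6% a lower response in brain, and the median difference was 1.83 for the 9 genes and 0.200 for all genes tested. Gsdmd, with no call in skull, differed by 1.84 ± 0.23 on the log2 scale (adjusted p = 0.000412), and Aim2 by 1.77 ± 0.22 (adjusted p = 0.000374). Casp8 differed by 1.44 ± 0.19 (adjusted p = 0.000568) and Ripk1 by 1.10 ± 0.16 (adjusted p = 0.000768). Pycard differed by 2.46 ± 0.65 (adjusted p = 0.0233), Mlkl by 2.29 ± 0.60 (adjusted p = 0.0222) and Casp4 by 1.87 ± 0.46 (adjusted p = 0.0162).

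For Ripk3 the difference was 1.83 ± 0.66 with an adjusted p of 0.0799, which passed with DESeq2 (0.000862) and limma voom (0.0472) and without brain control replicate 1 (log2 2.43, 0.0473) or 2 (log2 1.20, 0.0229). Over the other libraries left out in turn it did not pass, with an adjusted p of up to 0.153. Casp1 differed by 0.22 ± 0.34 (adjusted p = 0.697). The calls of Casp4, Mlkl and Pycard depended on few libraries: without brain control replicate 2 their adjusted p were 0.0523, 0.0615 and 0.0501, Mlkl was also lost without brain control replicate 3 (0.0657), and Casp4 with limma voom (0.0779). Pycard was lost as well without brain day 2 replicate 2 (0.0597), skull control replicate 3 (0.0520) or skull day 2 replicate 2 (0.0524). The brain controls started from lower levels, and markers differed in their response too, with sums as given for each tissue. The log2 change was higher in brain for 8 of 10 microglia and macrophage markers and 4 of 7 monocyte markers. So it was for 5 of 8 neutrophil markers and all 6 endothelial markers. The same held for 5 of 7 astrocyte markers, 4 of 9 neuron markers, 2 of 6 B cell markers and 2 of 6 osteoclast markers. A higher log2 change can also be a smaller fall. Astrocyte markers had a median log2 change of 0.25 in brain and -1.15 in skull, and the B cell markers tested -0.07 and -2.15. Neuron markers fell in both tissues, with a median log2 change of -0.58 in brain and -2.25 in skull. The part of these cell types in the difference was not tested.

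Around the 9 genes, 7 lists with 90 further genes of these pathways were examined, of which 86 were tested in brain and 85 in skull. In brain at day 2, 39 rose (45.3%, against 14.7% of all genes) and 1 fell. At day 6 in brain, 23 rose (26.7%, against 7.93%). In skull at day 2, 23 rose (27.1%, against 17.8%) and 3 fell, and at day 4, 12 rose (14.1%, against 5.83%) and 1 fell. The share of all genes in each comparison is also the one to set beside the count of each list. The lists were chosen with earlier results of these data known, so the shares describe them and do not test them. Some of the genes passed the filter on low counts through injured libraries alone, such as Tnf and Zbp1, with 0 and 5 counts over the brain controls.

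Inflammasome sensors other than Aim2 rose in brain at day 2 in 8 of 12 cases, with a median log2 change of 2.34. Ifi204, a DNA sensor of the Aim2 family, had 4.16, 3.95 and 5.01 CPM at day 2 and 3 counts in all over the brain controls, a ratio of 109 with a 95% counting interval of 36.8 to 531. Naip2, the receptor that passes bacterial secretion proteins to Nlrc4, rose by 3.61 ± 0.39 on the log2 scale (adjusted p = 2.65e-05), and Nlrp3, the sensor of membrane damage and potassium loss, by 2.62 ± 0.35 (adjusted p = 0.000111). Mefv, which encodes pyrin, had 143 counts at day 2 and 2 over the controls, a ratio of 95.3 (25.9 to 794). At day 6, 6 of 12 were higher than controls, and Mefv had fallen relative to day 2 (log2 -3.81 ± 0.77, adjusted p = 0.00669). In skull 2 of 12 rose at day 2, a share near the 17.8% of all genes: Ifi204 (log2 2.42 ± 0.42, adjusted p = 0.00396), with 107 CPM in replicate 3 and 43.1 and 37.6 CPM in the others, and Mefv (1.05 ± 0.19, adjusted p = 0.00245), and Mefv rose at day 4 (1.30 ± 0.19, adjusted p = 0.0085).

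Of the substrates and products of pyroptosis and the other gasdermins, 3 of 7 rose in brain at day 2: Il1b (log2 3.93 ± 0.55, adjusted p = 0.000274), Il1a (1.93 ± 0.27, adjusted p = 0.000193) and Ninj1 (0.79 ± 0.20, adjusted p = 0.0118), whose product tears the membrane late in lytic death. Il1b had 4.04, 11.3 and 6.52 CPM at day 2, against 0.419, 0.112 and 0.916 CPM in brain controls, and 0.566, 0.687 and 0.566 CPM at day 6, which was lower than day 2 by a log2 change of -3.57 ± 0.56 (adjusted p = 0.00219). Il1rn, the antagonist of the interleukin-1 receptor, had no count in brain controls and 2.88, 5.79 and 7.01 CPM at day 2, at least 131-fold higher when 3 counts over the group are taken as the floor, but did not pass the test (adjusted p = 0.0629). In skull Il1rn rose at day 2 (log2 2.53 ± 0.33, adjusted p = 0.000744) and Hmgb1 rose by 0.48 ± 0.09 (adjusted p = 0.00251). Gsdme, another gasdermin, had 26.3, 33.3 and 28.1 CPM at day 2 against 33.8, 29.5 and 28.7 CPM in brain controls (log2 -0.07 ± 0.13, adjusted p = 0.756). Il18, the gene of interleukin-18, was not called at day 2 in either tissue. It had 20.6, 14.4 and 13.3 CPM in brain at day 2, against 23.1, 18.8 and 18.7 CPM in brain controls. In skull it had 13.6, 13.3 and 14.9 CPM at day 2, below every skull control (19.0, 19.4 and 17.4 CPM).

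The genes that work with caspase-11, among them guanylate-binding proteins that act on bacterial membranes, rose in brain at day 2 in 10 of 11 cases, with a median log2 change of 2.11. Irgm1 rose by 2.12 ± 0.14 (adjusted p = 6.54e-07), Gbp3 by 2.54 ± 0.21 (adjusted p = 3.49e-06), Gbp5 by 2.87 ± 0.28 (adjusted p = 1.24e-05) and Gbp7 by 1.97 ± 0.20 (adjusted p = 1.49e-05). At day 6, 7 of 11 were higher than controls, and 7 were lower than at day 2, with the smallest adjusted p for Gbp7 (log2 -1.64 ± 0.20, adjusted p = 0.000274) and Irgm1 (-1.11 ± 0.14, adjusted p = 0.000298) and the lowest log2 change for Gbp5 (-1.80 ± 0.27, adjusted p = 0.00133). In skull 1 of 11 rose at day 2, Cd14, the co-receptor for lipopolysaccharide (log2 1.09 ± 0.18, adjusted p = 0.00168), and 1 at day 4, Irf8 (0.97 ± 0.12, adjusted p = 0.00747). Replicate 3 of skull day 2 stood apart for this list: Irgm1 had 137 CPM there and 38.6 and 39.3 CPM in replicates 1 and 2, Gbp3 90.6 against 20.8 and 20.9 CPM, and Gbp7 75.4 against 25.2 and 21.7 CPM.

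Upstream of Ripk1 and Ripk3, 7 of 9 receptors and sensors rose in brain at day 2, with a median log2 change of 1.54. Tnf, the classic trigger of necroptosis, had no count in the brain controls and 2.05, 2.67 and 2.48 CPM at day 2, at least 60.0-fold higher with the same floor of 3 counts (adjusted p = 3.02e-05). Zbp1 had 2.66, 3.33 and 5.93 CPM at day 2, against 0, 0.186 and 0 CPM in brain controls (adjusted p = 9.12e-05). The death receptor genes Fas and Tnfrsf1a rose by 3.19 ± 0.42 (adjusted p = 0.000103) and 2.72 ± 0.30 (adjusted p = 0.000161). In skull at day 2, Tnfrsf1a (log2 0.71 ± 0.09, adjusted p = 0.000597), Fas (0.54 ± 0.15, adjusted p = 0.0197) and Zbp1 (2.48 ± 0.63, adjusted p = 0.02) rose, and the death ligand gene Tnfsf10 fell (-1.41 ± 0.29, adjusted p = 0.00554). Like Ripk3, Zbp1 had fallen by day 4 relative to day 2 (log2 -2.57 ± 0.64, adjusted p = 0.0272). Unlike Ripk3, it was uneven at day 2, with 74.1 CPM in replicate 3 and 19.1 and 15.9 CPM in replicates 1 and 2. At day 4 it had 6.09, 7.91 and 4.36 CPM.

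Of the 20 genes of the receptor complex and its brakes, 6 rose in brain at day 2, with a median log2 change of 0.21. They included Birc3, a ubiquitin ligase on Ripk1 (log2 1.78 ± 0.24, adjusted p = 0.000148), Cflar, the partner that tunes caspase-8 (1.20 ± 0.18, adjusted p = 0.000361), the adaptor Fadd (1.21 ± 0.28, adjusted p = 0.00544) and the kinase Mapkapk2 (0.62 ± 0.16, adjusted p = 0.0142). At day 6, 1 of 20 was called, Birc3 (1.06 ± 0.25, adjusted p = 0.0129). In skull at day 2, 5 rose: Otulin (0.48 ± 0.11, adjusted p = 0.0102), Map3k7 (0.26 ± 0.07, adjusted p = 0.018), Tnfaip3 (0.69 ± 0.21, adjusted p = 0.0268), Fadd and Mapkapk2, and Cyld (-0.26 ± 0.08, adjusted p = 0.0325) and Rbck1 (-0.30 ± 0.09, adjusted p = 0.03) fell.

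The ESCRT-III genes, whose products repair gasdermin and Mlkl lesions, lay between -0.55 and 0.25 in log2 change in brain at day 2, with a median of -0.05. In skull 3 of 9 rose at day 2, Vps4b (0.46 ± 0.07, adjusted p = 0.00138), Pdcd6ip (0.41 ± 0.08, adjusted p = 0.0029) and Chmp4b (0.37 ± 0.09, adjusted p = 0.0114). Of 18 apoptosis genes, 5 rose in brain at day 2, with the smallest adjusted p for Mcl1 (1.09 ± 0.11, adjusted p = 1.22e-05) and Bcl2l11 (1.29 ± 0.28, adjusted p = 0.00498), which act against and for apoptosis, and the initiator caspase gene Casp9 fell (-0.45 ± 0.13, adjusted p = 0.0198). In skull 7 of 18 rose at day 2, among them Casp6 (0.93 ± 0.13, adjusted p = 0.000754) and Bak1 (0.74 ± 0.12, adjusted p = 0.00165).

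**Figure D5:**
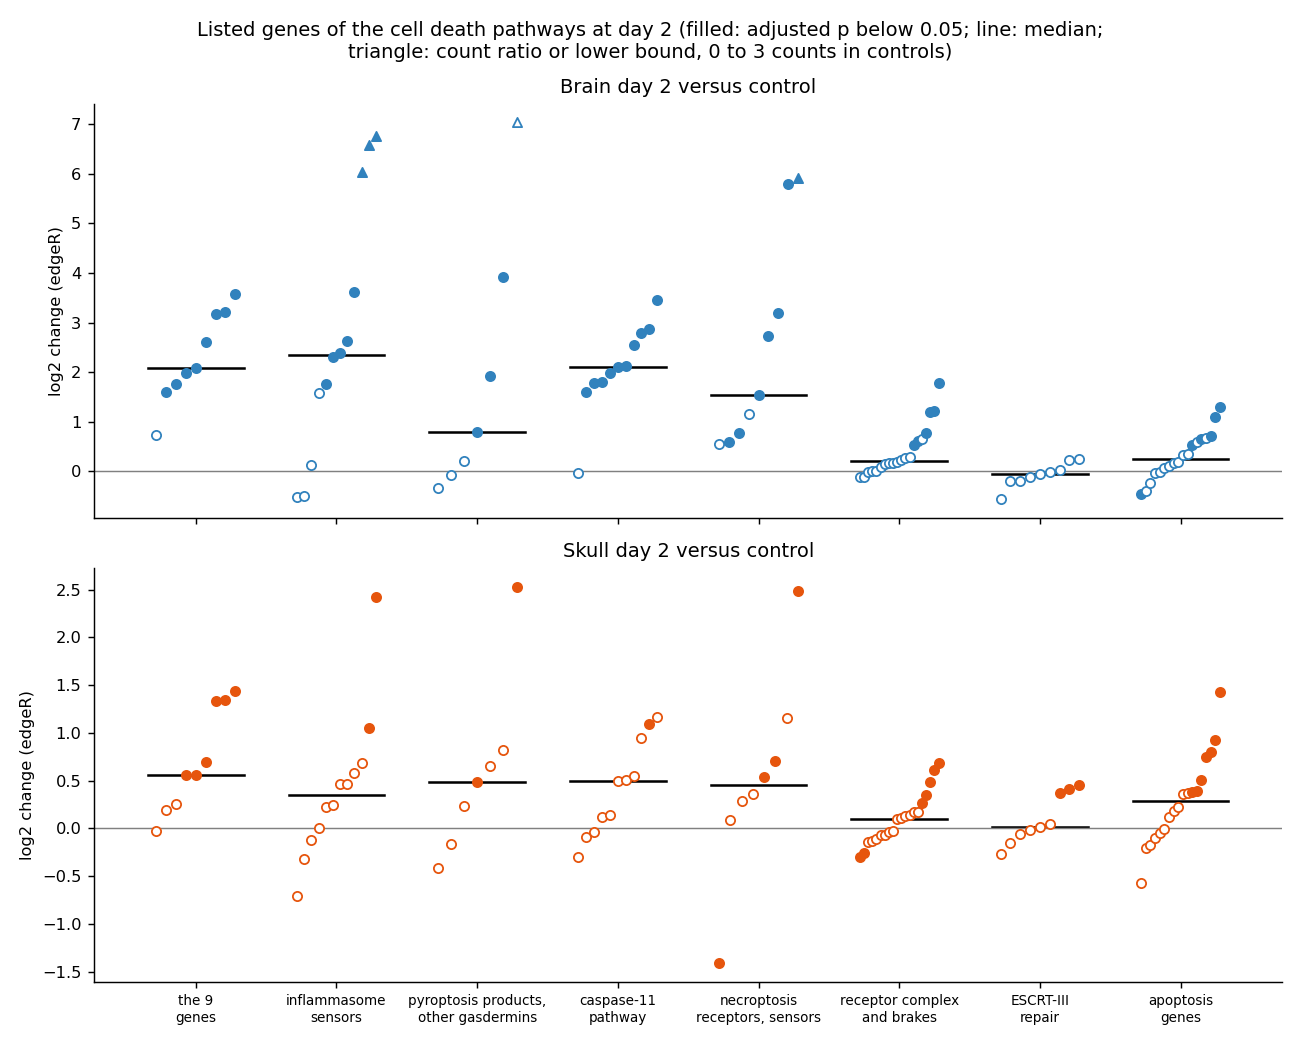
Log2 change at day 2 against controls in brain (top) and skull (bottom) for the 9 genes and for each tested gene of 7 pathway lists; filled symbols passed an adjusted p of 0.05, the line is the median, and triangles are count ratios or lower bounds where the controls held 0 to 3 counts. The vertical axes differ. In brain the 9 genes, the inflammasome sensors and the caspase-11 pathway have medians of 2.08, 2.34 and 2.11, against -0.05 for ESCRT-III repair.

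The genes whose pattern over the 6 group means lay closest to each of the 9 differed from gene to gene. Likeness was the root mean square difference of log2(CPM + 0.5), each gene centred on its own mean, among 16567 genes. CPM was scaled within each tissue. The added 0.5 is above the brain control means of Mlkl, Pycard, Ripk3 and Casp4, 0.220 to 0.406 CPM, so their patterns are flattened there. Casp1 was closest to Actb (0.0787) and Bak1 (0.0795). Casp8 was closest to Cd63 (0.0781) and its pseudogene Cd63-ps (0.0842), which may share reads. Aim2 was closest to Cysltr1 (0.0908) and Cyth4 (0.106), and Pycard to Itga6 (0.0946) and Gsap (0.140). Ripk1 was closest to Myd88 (0.101) and Spata6 (0.106), and Gsdmd to Sp100 (0.108) and Serpina3g (0.146). Mlkl was closest to Nt5dc2 (0.124) and Efemp2 (0.150), Ripk3 to Tfpi2 (0.133) and Tpm4 (0.183), and Casp4 to Phf11d (0.187) and Fblim1 (0.192).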

How the data were processed

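Per the labels' protocols, TRIzol extracts were cleared of DNA with DNase, poly(A) RNA was taken, and NEBNext Ultra II libraries were read as Illumina pairs of 150 bases. HISAT2 2.1.0 and mm10 are named in the submitters' processing notes; which program counted the reads, with which annotation and strand setting, is not given in the sources used here. As deposited, the table holds raw counts per gene, not normalized by the authors; 865 surplus identical copies were removed from its 26783 lines.

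Each tissue was fitted over its 9 libraries in edgeR 4.0.16 (R 4.3.3) with filterByExpr, TMM factors and a robust quasi-likelihood fit; the difference of day 2 responses used 12 libraries and the controls 6. Tests were two-sided with Benjamini-Hochberg adjustment over all genes tested, called below 0.05; SE is the log2 change over the root of F, and the prior count was 0.125. CPM used TMM factors within a tissue. Exon lengths came from GENCODE M21. Counting intervals and floors take in counting error and nothing else. The procedure was tested on simulated data. DESeq2 1.42.0, limma 3.58.1 and other alternatives are in the closing section. The 9 genes, lists, motifs and alternatives were chosen with earlier results of these data known. All 9 genes are named. Of each list, up to 4 genes with the smallest adjusted p and those going the other way are named. Gsdme, Il18, Il1rn, Zbp1 at day 4 and genes repeated across comparisons were added after their values were seen. Not every gene that this rule picks is reported here. Genes most alike needed a mean of at least 1 CPM.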

Additional observations from a re-analysis of the deposited data

Results flagged for a closer look

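For 7 of the 9 genes the day 2 response differed between the tissues by a test of the difference itself (edgeR, 12 libraries, log2 change in brain minus log2 change in skull). The differences were 2.46 for Pycard (adjusted p = 0.0233), 2.29 for Mlkl (0.0222), 1.87 for Casp4 (0.0162), 1.84 for Gsdmd (0.000412), 1.77 for Aim2 (0.000374), 1.44 for Casp8 (0.000568) and 1.1 for Ripk1 (0.000768). Of all genes tested, 14% had a higher response in brain.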

How the results depend on the processing

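Of 630 values of the 9 genes under other settings, 614 kept their direction and their side of the threshold, 9 lost and 6 gained a call, and 1 changed sign. With 1 library left out, 594 of 648 did so, 40 lost and 7 gained a call and 7 changed sign. None of the values that changed sign had been called. Aim2 between the brain days was -0.066 with limma voom and ran from -0.35 to 0.48 with each library left out. Over such fits Casp1 there ran from -0.38 to 0.024 and Casp8 from -0.43 to 0.13; in skull at day 2, Gsdmd ran from -0.085 to 0.042 and Pycard from -0.11 to 0.58.

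In skull at day 4 the count of the 9 genes called was 1 in place of 2 with RLE factors, with no filter, with limma voom, with the replicate block, with the compared groups alone and with haemoglobin and the 20 most abundant genes left out of library sizes. Genes called there numbered 2834 with DESeq2, 765 with the replicate block and 1004 with the compared groups alone. With each library left out in turn, genes called ran from 1005 to 2198 in brain at day 6, from 910 to 2329 between the brain days, from 10 to 2537 in skull at day 4, from 2260 to 4633 between the skull days and from 2185 to 3979 for the difference of responses. The 9 genes called ran from 0 to 1 between the brain days, from 0 to 2 in skull at day 4 and from 1 to 4 between the skull days. The causes were not tested.

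The labels do not say whether equal replicate numbers pair the libraries, and the main fits took them as unpaired. Same-numbered deviations correlated from -0.0408 to 0.233 in brain and from -0.464 to 0.156 in skull. With 3 libraries in a group, such correlations cannot settle whether the libraries are paired. Of 9 libraries in each tissue, 6 in brain and 2 in skull correlated best with their own number. With the number as a block, Casp1 in brain at day 2 came to pass (adjusted p = 0.0457), Gsdmd in skull at day 4 (0.0739) and Mlkl between the skull days (0.0644) no longer passed, and no other call of the 9 genes changed. Low counts limit Mlkl, Pycard, Ripk3 and Casp4 in the brain controls, with 16 to 30 counts over 3 libraries.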
